A study of Mus musculus with 4 samples.

Results

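Barx2, Sox8, Klf6, Barhl2, Tfam and Zfp326 are 6 genes for proteins that act on transcription, and each lies beside 1 of the widest chromatin sites reported for the long noncoding RNA MUNC. They were chosen from the peak positions: each is the nearest protein-coding gene on 1 side of a peak that ranked among the 10 widest of 256. The 6 genes belong to 5 peaks, because Zfp326 and Barhl2 flank the same one. Peak width, the identity of the nearest gene and its role therefore made the selection and are given here as a description. Whether genes beside wide peaks are more often regulators of transcription was not tested.

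The peaks came from chromatin isolation by RNA purification and sequencing (ChIRP-seq), in which biotinylated antisense DNA probes capture 1 RNA from fixed chromatin, and the DNA that comes along is sequenced. All 4 libraries were from wild-type C2C12 cells, a mouse myoblast line that forms myotubes after serum is lowered. The labels name C2C12 myoblasts as the source and myotubes as the tissue, and the growth text calls the cells PAX7 NEG. Probes against MUNC were used in 2 libraries and probes against the bacterial lacZ sequence, the negative control, in 2 more. Per the labels' protocols, growth medium held 20% fetal serum and differentiation medium 2% horse serum, and the differentiated condition lasted 3 days. The deposited lists name 256 peak positions and 410 adjoining genes without any measurement per library, so no replicate error, no sequencing depth and no lacZ background can be set beside any value below. They also hold no expression value, so the myotube label was not checked against muscle genes, and whether any of the 6 genes is expressed in these cells was not analysed here.

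Proteins that regulate transcription bind DNA, or the machinery that copies it, and so set which RNAs a cell makes. MUNC is transcribed upstream of Myod1, the gene of a master regulator of the muscle fate. Barx2 and Barhl2 encode homeodomain proteins of the Bar type, and Barx2 is known from myoblast differentiation while Barhl2 is known from neurons of the retina and spinal cord. Sox8 encodes an HMG-box protein of the SOXE group that is found in muscle satellite cells. Klf6 encodes a zinc finger protein of the Krüppel-like family that binds GC-rich DNA. Tfam encodes the HMG-box protein that packages mitochondrial DNA and starts its transcription. Zfp326 encodes a zinc finger protein of the DBIRD complex, which links RNA polymerase II elongation to splicing.

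The promoters of Tfam and Sox8 are shown because, of the 5 members with a strand in the promoter table, these had their peak upstream of the gene's start. Both are RefSeq sequences of GRCm38.p6, covering 250 bases before the start and the first 50 bases from it, on the minus strand, at chr10:71237995-71238294 for Tfam and chr17:25570637-25570936 for Sox8. Capitals mark matches to GGGCGG (a GC box, bound by SP1 and Krüppel-like proteins), CCGGAAGT (bound by GABPA, an ETS protein) and CACGTG (an E-box, its own reverse complement), each searched on both strands.
Tfam promoter: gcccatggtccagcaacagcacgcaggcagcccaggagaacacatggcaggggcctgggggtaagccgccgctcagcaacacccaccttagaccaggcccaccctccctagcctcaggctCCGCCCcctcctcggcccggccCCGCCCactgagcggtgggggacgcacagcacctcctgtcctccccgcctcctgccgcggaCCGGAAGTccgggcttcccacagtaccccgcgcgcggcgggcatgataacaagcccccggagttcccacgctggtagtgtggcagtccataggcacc
Sox8 promoter: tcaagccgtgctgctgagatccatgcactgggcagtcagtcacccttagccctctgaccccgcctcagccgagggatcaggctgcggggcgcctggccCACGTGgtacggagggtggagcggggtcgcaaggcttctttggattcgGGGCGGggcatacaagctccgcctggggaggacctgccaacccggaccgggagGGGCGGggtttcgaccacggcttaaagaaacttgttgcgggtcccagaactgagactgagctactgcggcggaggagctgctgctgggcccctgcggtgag

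Tfam had the closest of the 5 peaks. The peak of 1200 bases, the second widest of all 256, lay at chr10:71240334-71241534, and Tfam ended 2006 bases from its edge, at chr10:71225468-71238328. Tfam is on the minus strand, so the peak was upstream of the gene, 2290 bases from the start in the promoter table. No annotated gene of any kind was nearer. On the other side Ube2d1, the gene of a ubiquitin-conjugating enzyme, ended 13446 bases away, and the peak sat in an interval of only 16651 bases between both genes. The median interval around the 147 peaks outside protein-coding genes was 757382 bases, and 143 of those 147 peaks lay in a larger interval than the Tfam peak. Only 3 of them were nearer to a protein-coding gene, and these genes, named after their values were seen, were Rab31 (54 bases), Nfxl1 (205 bases) and Ndfip2 (1128 bases). Their peaks were narrower than the Tfam peak, at 153, 192 and 385 bases. The peak lay outside the Tfam promoter printed above. That promoter held 1 match to the GABPA motif, which begins 47 bases before the start and occurs in 5.15% of 21263 protein-coding promoters of the same length, and 2 GC boxes, a motif found in 46.2% of them. It held no match to the motif of nuclear respiratory factor 1, which 6.38% of them hold.

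**Figure D1:**
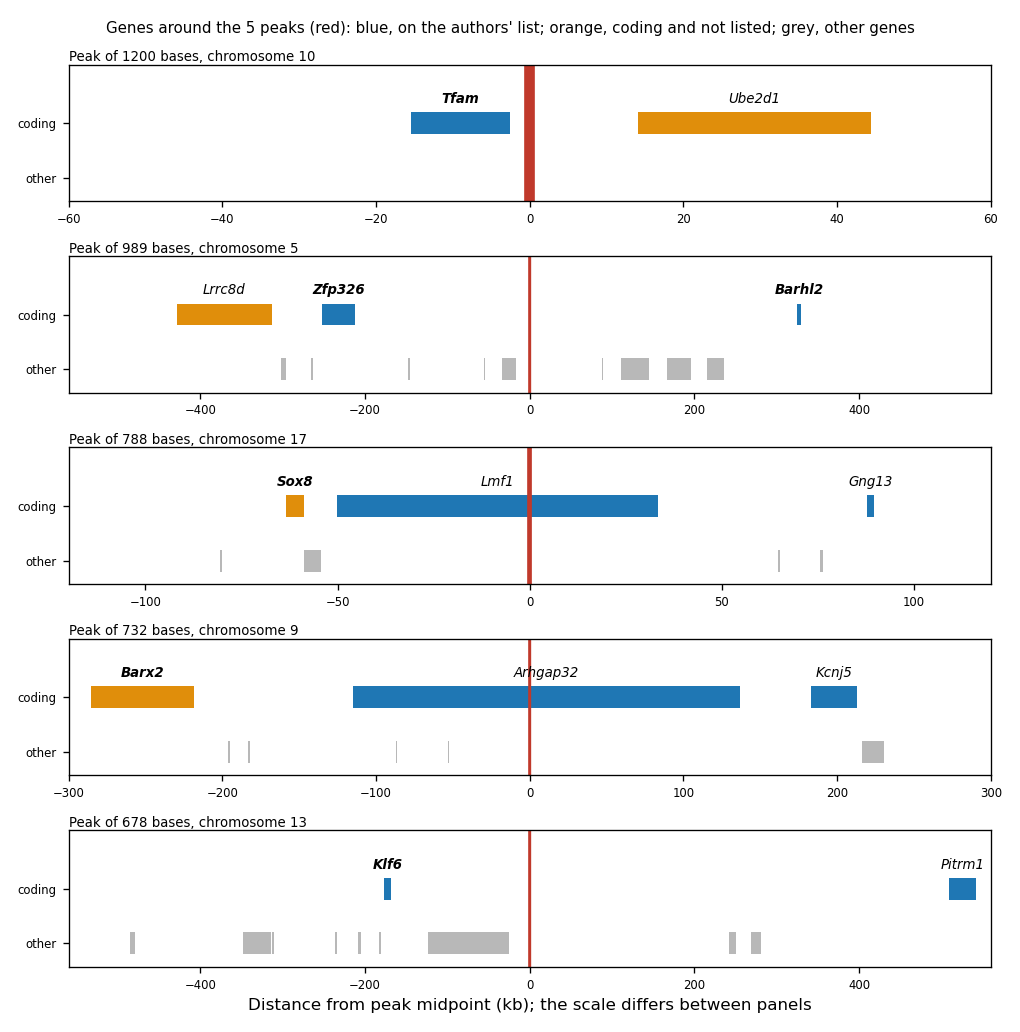
Gene neighbourhoods of the 5 peaks, drawn as distance from the peak midpoint in kb with a different scale in each panel; bars are gene bodies in blue (protein-coding and on the authors' list), orange (protein-coding and not listed) or grey (other genes), shown out to the farther flanking protein-coding gene, and red is the peak. The Tfam peak is 2006 bases from the gene, the peaks beside Sox8 and Barx2 lie inside Lmf1 and Arhgap32, and the remaining peaks stand in intervals of 536704 and 677728 bases with noncoding genes on either side.

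Zfp326 and Barhl2 faced each other across the third widest peak. This peak of 989 bases lay at chr5:106127799-106128788, in an interval of 536704 bases without a protein-coding gene, below the median of 757382 bases for peaks outside genes. Zfp326, at chr5:105876556-105915818 on the plus strand, ended 211981 bases on the lower side. Barhl2, at chr5:106452523-106458166 on the minus strand, ended 323735 bases on the higher side, the longest distance among the 6 members. The peak was thus downstream of both genes. Noncoding genes and pseudogenes came between: 7 genes were nearer to the peak than Zfp326, and none of them encodes a protein. The nearest was the lncRNA gene Gm32736 at 15650 bases. The others were the snRNA gene Gm25672, the pseudogenes Gm5987, Gm38433 and Gm19566, and the lncRNA genes Gm32973 and Gm32921. Barhl2 had 12 nearer genes, which add Zfp326, the lncRNA gene 4930458A03Rik, the pseudogene Gm10359, the RNA gene D830014E11Rik and, behind Zfp326 at 312584 bases, Lrrc8d, the gene of a subunit of volume-regulated anion channels. None of the noncoding genes in this interval was on the authors' list.

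Klf6, like Tfam, Zfp326 and Barhl2, had a single peak within 1000000 bases. The peak of 678 bases, the ninth widest, was at chr13:6038436-6039114, and the nearest other peak on the chromosome was 9286933 bases away. Klf6, at chr13:5861489-5870393 on the plus strand, ended 168043 bases from it, with the peak downstream. Exactly 1 gene was nearer, the lncRNA gene Gm46401 at 24473 bases, which extends over 98258 bases between Klf6 and the peak. The gene on the other side was Pitrm1, which encodes a mitochondrial peptidase, 509008 bases away. The interval between Klf6 and Pitrm1 was 677728 bases, near the median of 757382 bases for peaks outside genes.

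Sox8 was next to a peak that lay inside another gene. The peak of 788 bases, the fourth widest, was at chr17:25629028-25629816 within Lmf1, which encodes a factor needed for lipase maturation. Its midpoint stood 60.1% of the way along Lmf1 from the lower end, which is the 5′ end of that plus-strand gene; the gene table has no exons, so intron and exon were not told apart. Sox8, at chr17:25565893-25570686 on the minus strand, was 58342 bases from the peak, with the peak upstream. Nearer than Sox8 were Lmf1 itself and the lncRNA gene Cerox1 at 53985 bases. Cerox1 is read in the opposite direction from Sox8, the nearest starts of both are 125 bases apart, and 224 bases of the Sox8 promoter printed above also belong to the window of Cerox1. Gng13, the gene of a G protein gamma subunit, was 87356 bases away on the other side. A second peak, of 238 bases, lay 148350 bases from Sox8 on the lower side.

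Barx2 was also next to a peak inside another gene. The peak of 732 bases, the seventh widest, was at chr9:32131249-32131981 within Arhgap32, 45.7% of the way along that gene. Barx2, at chr9:31846044-31913285, ended 217964 bases from it, and its strand is not in the promoter table used here. Nearer than Barx2 were 7 genes: Arhgap32, the potassium channel gene Kcnj5 on the other side at 182725 bases, the pseudogenes Gm47496, Gm47481, Tpi-rs4 and Gm3756, and the lncRNA gene Gm39317. A second peak of 462 bases stood 570 bases from this one, also in Arhgap32 and 216932 bases from Barx2. When peaks less than 1000 bases apart were merged, this pair became 1 region of 1764 bases and the second widest of 252. The peaks of the other members moved down. That of Tfam came to rank 4, that of Zfp326 and Barhl2 to rank 5, that of Sox8 to rank 7 and that of Klf6 to rank 10.

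**Figure D2:**
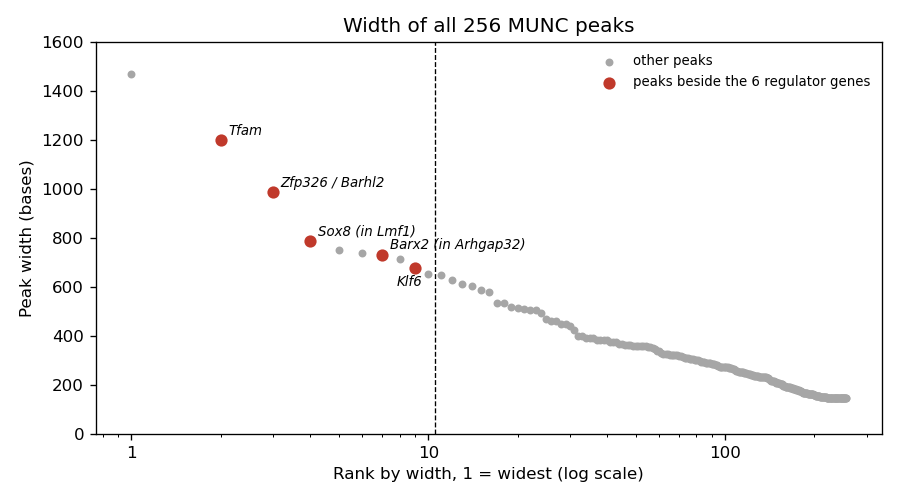
Width in bases of each of the 256 peaks against its rank on a log axis, with the 5 peaks beside the 6 genes in red and the edge of the 10 widest as a dashed line. The red peaks have widths of 1200, 989, 788, 732 and 678 bases, and no gap in width separates rank 10 from rank 11.

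In width the 5 peaks ran from 678 to 1200 bases, against a median of 236 bases and a range from 148 to 1469 bases over all 256. The last peak inside the 10 widest measured 655 bases and the first outside 651 bases. The others of the 10 widest were a peak in Abcc4 (1469 bases), one in Cfap299 (753 bases), one next to Myod1 (740 bases), one nearest to Ncam2 (714 bases) and one in Anks1b (655 bases). Myod1 too encodes a transcription regulator. It was 3842 bases from its peak, so that only Tfam among the members lay closer to its peak.

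Apart from that of Tfam, the distances of the members to their peaks lay between the quartiles seen for flanking genes in general. Over all peaks there were 435 pairs of a peak and its nearest protein-coding gene on 1 side, within 1000000 bases, and their median distance was 168043 bases, with quartiles of 49157.5 and 414556 bases. The Klf6 pair was itself at this median. The median of the 6 members was 190012 bases. Sox8 was nearer than the median, Zfp326, Barx2 and Barhl2 lay beyond it but under the upper quartile, and Tfam was the only member under the lower quartile, with 3 of the 435 pairs at a shorter distance.

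The surroundings of the 5 peaks differed widely in gene content. Within 500000 bases of the midpoint, the Sox8 peak had 49 protein-coding genes, the highest count of all 256 peaks. The peaks beside Tfam, Zfp326 with Barhl2, and Barx2 had 5 each, and the Klf6 peak had 1. The median over all peaks was 4, with quartiles of 1 and 10. The 5 peaks thus held a crowded stretch, a nearly empty one and 3 stretches close to the median. The median of the 5 was 5 genes.

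**Figure D3:**
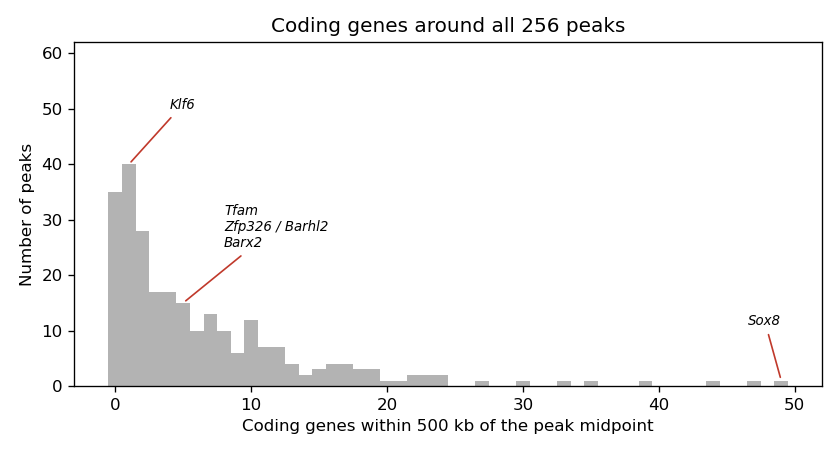
Number of peaks (vertical axis) by the number of protein-coding genes within 500000 bases of the peak midpoint (horizontal axis), over all 256 peaks, with the places of the 5 peaks marked by the regulator genes beside them. The Sox8 peak is at 49 genes, the top of the range, the Klf6 peak at 1 and the others at 5.

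The authors' gene list held 4 of the 6 members: Klf6, Barhl2, Tfam and Zfp326. Sox8 and Barx2 were not on it. Of all 21887 protein-coding genes in the annotation, 1.82% were listed, and of the 415 genes that were nearest to a peak on either side, 68.9% were listed, so a count of 4 of 6 is near what flanking genes in general gave. With spanning genes counted too, 74.0% of 515 genes were listed. Lmf1 and Arhgap32, which hold the peaks beside Sox8 and Barx2, were both listed, as were 95.3% of the 106 genes that span a peak. Of the genes on the far side, Gng13, Kcnj5 and Pitrm1 were listed and Ube2d1 was not.

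Where the starts of the spanning genes lie was examined next, a comparison chosen after the list had been read. Lmf1 starts at its lower end, 49854 bases from the peak and between the peak and Sox8. Arhgap32 has 3 starts in the promoter table, of which those 114624 and 98946 bases from the peak stand between the peak and Barx2. The 4 listed members had no spanning gene between them and their peak. Over all peaks, pairs in which no gene spanned the peak had the flanking gene listed in 212 of 241 cases (88.0%). With a spanning gene whose start lay between the peak and the flanking gene, the flanking gene was listed in 11 of 76 cases (14.5%), and with a spanning gene that had no start there, in 57 of 72 cases (79.2%). In 4 of the 11 listed cases the gene also lay beside or under another peak; these were Kcnj5, counted once for each of the close peaks in Arhgap32, and Ankrd44 and Xirp2, which were named after their values were seen. In 46 pairs a spanning gene had no start in the table, and 22 of these (47.8%) were listed. Sox8 and Barx2 were both among the unlisted genes of the class with a start between. Outside the 10 widest peaks the figures were 10 of 70 with a start between (14.3%) and 204 of 232 with no spanning gene (87.9%); these 70 pairs still hold Barx2 and Kcnj5, as the flanks of the second peak in Arhgap32. Counting only the outermost start of each gene, 5 of 65 pairs with a start between (7.69%) and 63 of 83 without one (75.9%) were listed. Since the list was made from these peaks, these shares describe how genes were joined to peaks and not MUNC binding, and the joining rule is not given in the sources used here.

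**Figure D4:**
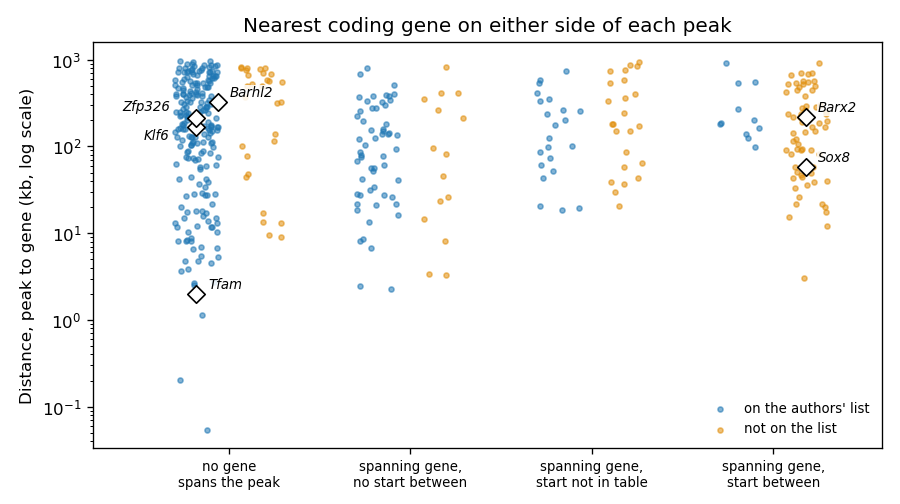
Distance in kb on a log axis between each peak and its flanking protein-coding genes, at most 1000000 bases away, for 435 pairs split by whether a gene spans the peak and where its start lies; blue pairs have the gene on the authors' list, orange pairs do not, points are spread sideways only to separate them, and diamonds are the 6 regulator genes. Klf6, Zfp326, Barhl2 and Tfam are among the pairs with no spanning gene, and Sox8 and Barx2 among those with a start between.

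**Figure D5:**
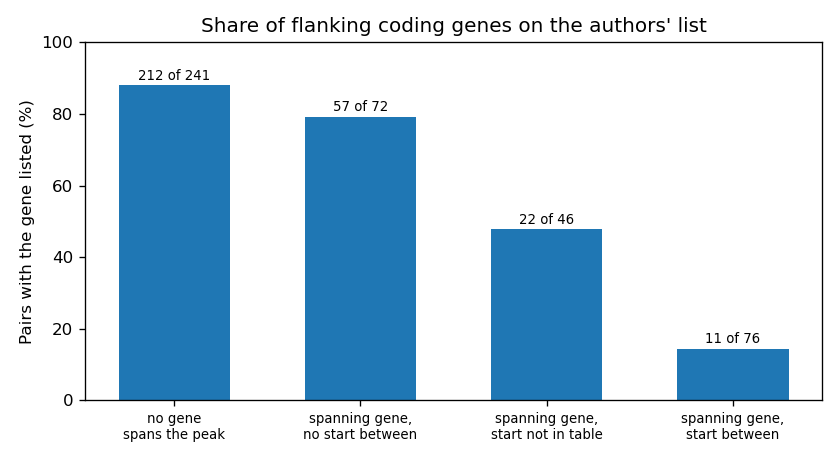
Percentage of the same pairs in which the flanking gene is on the authors' list, by class, with counts above the bars. The share is 88.0% where no gene spans the peak and 14.5% where a start of the spanning gene lies between peak and flanking gene.

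Ube2d1 was unlisted although no gene stood between it and its peak, which was 2006 bases from Tfam. The farther of both flanking genes was therefore counted for each peak that no gene spanned and that had a flanking gene on either side. Where the nearer gene was within 5000 bases of the peak, as Tfam was, the farther gene was listed for 5 of 11 peaks (45.5%), and Otog, beside both peaks near Myod1, accounts for those of 2 peaks. Where the nearer gene was farther than 5000 bases, the farther gene was listed for 85 of 94 peaks (90.4%). This window was also chosen after the list had been read, and with 11 peaks the share is imprecise.

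Relatives of the members were counted next, beside the 1.82% of all protein-coding genes that were listed. Of 19 annotated Sox genes, 2 were listed, Sox11 and Sox3, and no gene of the SOXE group (Sox8, Sox9 and Sox10) was. Sox11, which acts in neural progenitors, was 252389 bases from a peak of 148 bases, and Sox3, known from the same cells, was 201093 bases from a peak of 154 bases. Both peaks were narrow, at rank 232 and rank 208 by width, while the peak of the unlisted Sox8 ranked 4 and was nearer. Of 17 Krüppel-like genes, 3 were listed. Besides Klf6 these were Klf12, a repressor, whose gene body held a peak of 165 bases, and Klf5, a regulator of growth in epithelia and smooth muscle, 674946 bases from that same peak. Of the 4 Bar homeobox genes, Barhl2 was listed, Barx2 was beside a peak without being listed, and Barx1 and Barhl1 neighboured no peak. Among 20 genes for the transcription and replication of mitochondrial DNA, which include the activators Nrf1, Gabpa and Ppargc1a and the polymerase gene Polrmt, Tfam was the only one listed and the only neighbour of a peak. Zfp326 was listed and its DBIRD partner Ccar2 was not. Among 12 regulators of myogenesis, Myod1 alone was listed. In all, 9 of the 74 genes of these families were on the list, 4 of them members, which were chosen for lying next to a peak.

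The 5 members with a promoter in the table had starts with a GC content above the median of protein-coding genes. GC content was 63.0% for Klf6, 66.3% for Sox8, 70.3% for Tfam, 71.3% for Zfp326 and 73.7% for Barhl2, against a median of 56.3% over promoters of protein-coding genes. Each of the 5 held at least 1 GC box, from 1 in Klf6 to 4 in Barhl2 and in Zfp326, and 46.2% of protein-coding promoters held one. The E-box CACGTG, in 7.84% of protein-coding promoters, was in those of Sox8, Klf6 and Barhl2 and had no match in those of Tfam and Zfp326. The E-box CAGCTG, which MyoD dimers bind and which 15.6% of protein-coding promoters hold, had no match in any of the 5 windows. These are matches of letters in 300 bases around the starts, outside all 5 peaks, and the sequence of the peaks themselves was not analysed here.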

How the data were processed

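ChIRP-seq was performed in 2 libraries with MUNC probes and 2 with lacZ probes. Per the submitters' processing notes, Bowtie2 2.3.4.1, MACS2 2.1.1.20160309 and the build mm10 were used by the authors; settings, the role of the lacZ libraries and the joining of replicates are not given in the sources used here. The deposited peak list holds positions only and the deposited gene list symbols only, per the file headers. Positions are given unaltered, and the width of a peak is its end less its start.

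Genes were taken from RefSeq on GRCm38.p6, the assembly that mm10 names (49943 genes on the named chromosomes, 21887 protein-coding). Of 410 listed symbols, 396 matched a current symbol, 12 an older symbol of 1 gene only, and 2 none. Distance ran from the nearer peak edge to the nearer gene end, and 1 shared base counted as overlap. Starts and strands came from the RefSeq promoter table, which covers 79.9% of the protein-coding genes used. Of the 6 members, 5 had a promoter there and Barx2 did not. Genes named were the members, genes nearer to or spanning their peaks, the genes on the far side and listed relatives, with 1 gene given for each remaining wide peak. Otog, Rab31, Nfxl1, Ndfip2, Ankrd44, Xirp2 and unlisted relatives were named outside this rule.

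The members and gene lists were chosen with earlier results of these data known, so no test was run. Distance and merging procedures were checked on simulated data. Alternatives changed the neighbour definition, the distance points, the number of widest peaks, merging, symbol matching, windows and starts. Python 3.11.15 and pandas 2.3.3 were used.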

Additional observations from a re-analysis of the deposited data

How the results depend on the processing

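Of 15 alternatives for the main values, 10 left the value within 1.5 times of the one reported; the other 11 of 26 repeat the distance alternatives gene by gene, and all of these stayed within it. Among the 5 widest peaks there were 3 peaks of the members in place of 5, by construction of a shorter list. With genes of every kind counted as neighbours, 1 of the 6 members, Tfam, was still nearest, since noncoding or spanning genes lay nearer than the others; by nearest protein-coding start, 4 remained, all but Sox8 and Barx2. The median number of protein-coding genes around the 5 peaks was 1 with 100000 bases either side and 12 with 1000000 bases, as wider windows hold more genes; over all peaks the medians were 1 and 8.5. With only the outermost start of each gene, the listed share of flanking genes behind a start was 7.69% in place of 14.5%, an alternative chosen after the data were seen; it moved both Kcnj5 pairs out of that class.

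No paired analysis was possible because the lists carry no measurement per library, and for the same reason no replicate was left out. Which sites depth kept from the list was not analysed here.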
